A study of Mus musculus with 6 samples.

Results

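The colony-stimulating factors are secreted proteins that keep macrophages, granulocytes and their precursors alive and dividing, and each acts through its own receptor on the cell surface. The genes described here are the ligands Csf1, Il34, Csf2 and Csf3 and the receptors Csf1r, Csf2ra, Csf2rb, Csf2rb2, Csf3r and Flt3, chosen by gene symbol. Of these 10 genes, 9 have a row in the table of 30445 genes. Csf2, which encodes granulocyte-macrophage colony-stimulating factor, has no row in the table used here and was not analysed. No row of that table is without counts, and why Csf2 has no row is not known. Of the 9 genes, 7 had enough counts to be tested, and Csf3 and Flt3 did not.

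Messenger RNA was sequenced of 3 kinds of mouse cells, 2 libraries each: induced macrophages (iMac), the cells labelled myeloid-like cell complex (MCC), and embryonic fibroblasts (MEF). The genotype is given as wild type in all 3 groups, and by the series title it is c-Myc, a transcription factor, that turns the fibroblasts into macrophages. How the iMac and MCC were made, which cytokines their medium held, how the one relates to the other, and whether the MCC are a mixture of cells is not stated in the labels. Nothing in the labels says whether the 2 libraries of a group came from separate cultures, so the p-values measure the spread between these libraries, which may be technical.

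CSF1, also called macrophage colony-stimulating factor, and interleukin-34 both bind CSF1R, a receptor tyrosine kinase on which most macrophages depend; fibroblasts and other stromal cells are a known source of CSF1. CSF2 binds its own alpha chain, encoded by Csf2ra, and signals through the common beta chain encoded by Csf2rb, which interleukin-3 and interleukin-5 receptors also use. Mice carry a further beta chain gene, Csf2rb2, whose product serves interleukin-3 only. CSF3 drives the making of neutrophils through CSF3R, and FLT3 is the receptor of FLT3 ligand on blood progenitors and dendritic cells.

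The question put to the table was which of the 3 kinds of cells held mRNA of the ligands and which held mRNA of the receptors. Ligands and receptors were split between the groups. Ligand mRNA (Csf1, Il34 and a trace of Csf3) was highest in MEF, and receptor mRNA (Csf1r, Csf2ra, Csf2rb, Csf2rb2 and Csf3r) was highest in iMac and MCC. In iMac against MEF all 7 tested genes were called at an adjusted p under 0.05 (edgeR's quasi-likelihood test, Benjamini-Hochberg adjustment over 18613 genes), 5 receptors as higher and 2 ligands as lower. Of all genes tested, 57.6% were called in that comparison, 25.1% as higher and 32.4% as lower in iMac, 10717 genes in all; without iMac library 1 or 2 the number was 5173 or 5197. In MCC against MEF the same 5 receptors were higher and the same 2 ligands lower, where 53% of all genes were called, 23.4% as higher and 29.6% as lower in MCC. Il34, Csf2rb, Csf2rb2 and Csf3r passed the filter on low counts only through the groups in which they were high, so that these counts describe the genes and are no further support. Both comparisons use the same MEF libraries.

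Library totals ranged from 34389817 to 39174367 counts. All 12 macrophage markers listed had a mean of at least 1 CPM (counts per 1e6 counts of the scaled library total) in iMac and in MCC, and 4 did in MEF. Their summed level was 23209 and 19190 CPM in the iMac libraries, 14372 and 13360 CPM in MCC and 25.9 and 52.5 CPM in MEF. Of 12 fibroblast markers, 3 reached a mean of 1 CPM in iMac, 10 in MCC and 12 in MEF. Myc was at 1022 and 1060 CPM in iMac, 822.8 and 1164 CPM in MCC and 70.7 and 63.1 CPM in MEF; counts per gene do not separate the cells' own Myc from a transgene.

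The 250 bases before the RefSeq start of Csf1 and of Csf2rb2 are shown as the start regions of a ligand gene that was lower, and a receptor gene that was higher, in iMac and MCC than in MEF. They are RefSeq's letters for GRCm38.p6, from the minus strand, at chr3:107760470-107760719 for Csf1 and chr15:78305722-78305971 for Csf2rb2. Capitals mark the letters GAGGAAG or, from the other strand, CTTCCTC, a purine-rich stretch of the kind that PU.1, the factor encoded by Spi1, binds.
Csf1: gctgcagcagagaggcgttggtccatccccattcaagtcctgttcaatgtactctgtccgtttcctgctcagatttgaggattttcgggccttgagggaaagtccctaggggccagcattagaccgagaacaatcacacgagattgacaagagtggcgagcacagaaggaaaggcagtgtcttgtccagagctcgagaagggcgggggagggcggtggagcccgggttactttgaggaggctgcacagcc
Csf2rb2: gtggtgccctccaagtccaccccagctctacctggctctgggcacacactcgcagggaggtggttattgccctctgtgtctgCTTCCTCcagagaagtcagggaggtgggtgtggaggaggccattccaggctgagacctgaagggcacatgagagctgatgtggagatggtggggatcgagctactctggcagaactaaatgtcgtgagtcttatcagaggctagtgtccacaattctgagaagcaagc

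The stretch was searched on both strands in the same 250-base window of the 4 genes with a tested value and an entry. It lies 168 bases before the RefSeq start of Csf2rb2 and 86 bases before that of Csf3r. In Csf2ra it lies 14 and 8 bases before the RefSeq start, where both copies overlap by a base. The GENCODE coordinates given below start Csf3r upstream of its match and Csf2ra within the copy further from the RefSeq start. Only the Csf2rb2 match thus lies wholly outside its GENCODE gene. The stretch is not in the Csf1 window. Of 32851 RefSeq promoters, 10.6% hold it in a window of this length. TTGCNNAA, the core letters of C/EBP sites, and CACGTG, the E-box that Myc binds, were in none of the 4 windows; 9.56% and 6.02% of all promoters hold them. These matches describe letters in a window and say nothing of whether a factor is bound there.

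**Figure D1:**
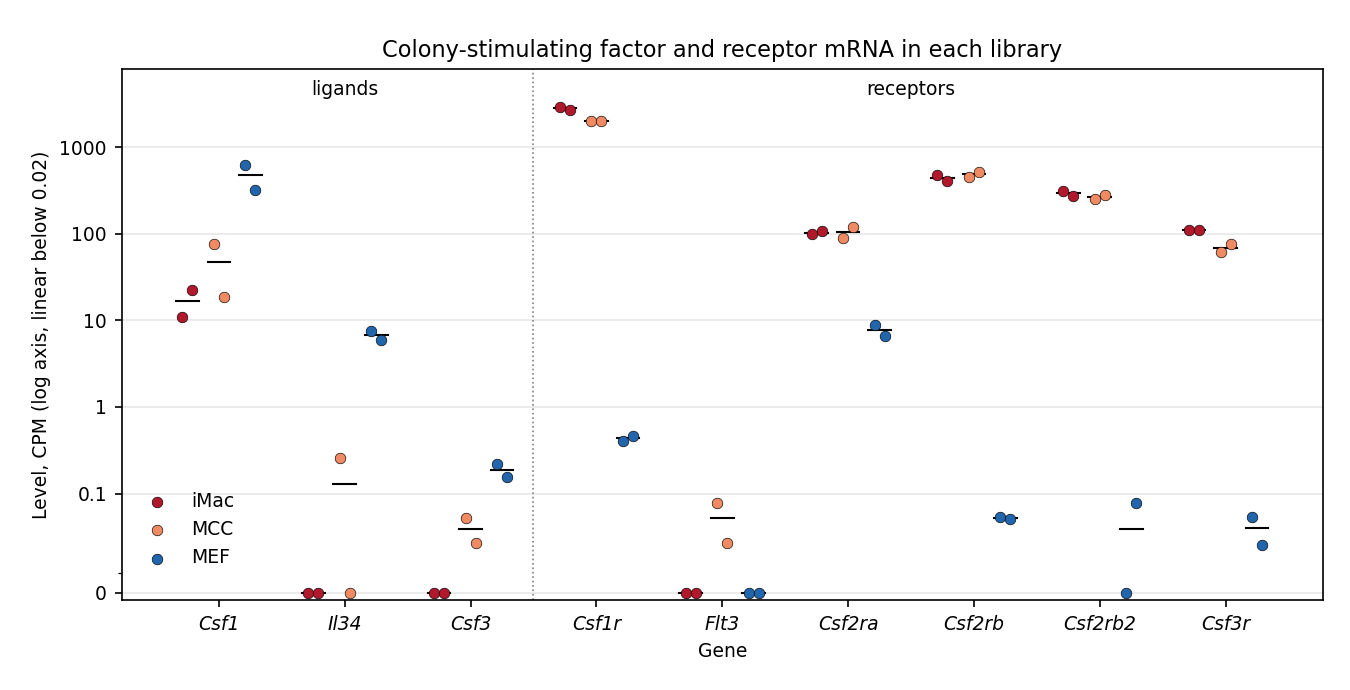
Level of each gene in each library, in CPM on a log axis that is linear below 0.02, with iMac, MCC and MEF from left to right within a gene and a line at each group's mean. The ligands Csf1, Il34 and Csf3 are highest in MEF, and the receptors other than Flt3 are at 60.9 CPM or more in every iMac and MCC library and at 8.84 CPM or less in MEF.

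Csf1 (chr3:107741048-107760469, minus strand; GENCODE on GRCm38) was the ligand gene with the highest level per length in all 3 groups. It was at 11.02 and 22.64 CPM in the iMac libraries, 77.0 and 18.5 CPM in MCC and 630.2 and 317 CPM in MEF. Both MEF libraries stood above every other library, and the ranges of iMac and MCC overlapped. Group means were 16.8 ± 8.22 CPM in iMac, 47.7 ± 41.4 CPM in MCC and 473.6 ± 221 CPM in MEF (SD, n = 2 each). In iMac against MEF the log2 fold change was -4.81 ± 0.89 (SE), 28.1-fold lower, with an adjusted p of 0.00893. In MCC against MEF it was -3.31 ± 0.83, 9.92-fold lower, with an adjusted p of 0.0243.

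The call of Csf1 was lost when some single libraries were left out. Without MEF library 1 the log2 fold change in MCC against MEF was -2.72 with an adjusted p of 0.0859, and without MEF library 2 it was -3.63 with an adjusted p of 0.0542. Leaving out MCC library 1 gave -4.67 and leaving out MCC library 2 gave -2.50, both called. In iMac against MEF it was -4.37 with an adjusted p of 0.0644 without iMac library 1, and -5.41 with an adjusted p of 0.0495 without iMac library 2. The direction was the same in all 14 alternatives to the fit for both comparisons.

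Csf1 was also the tested gene of the set that varied most between libraries of a group in proportion to other genes. MCC library 1 held 4.16 times the level of MCC library 2, and 2.84% of all tested genes differed at least as much between these libraries. In iMac, library 2 held 2.06 times the level of library 1, a distance reached by 0.231% of tested genes. In MEF, library 1 held 1.99 times the level of library 2, which 6.87% of genes matched. The fibroblast markers, which include the collagen genes Col1a1, Col1a2 and Col3a1, summed to 15.8 and 12.2 CPM in iMac, 963.5 and 87.5 CPM in MCC and 21933 and 11242 CPM in MEF, and all 12 had counts in every group. Their sum was 11.01 times as high in MCC library 1 as in MCC library 2, and 1.95 times as high in MEF library 1 as in MEF library 2. In iMac, where Csf1 was higher in library 2, the marker sum was 1.30 times as high in library 1. The part of fibroblast mRNA in the Csf1 level of MCC was not tested. In bulk libraries, fewer cells of a type and less RNA per cell cannot be told apart.

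**Figure D2:**
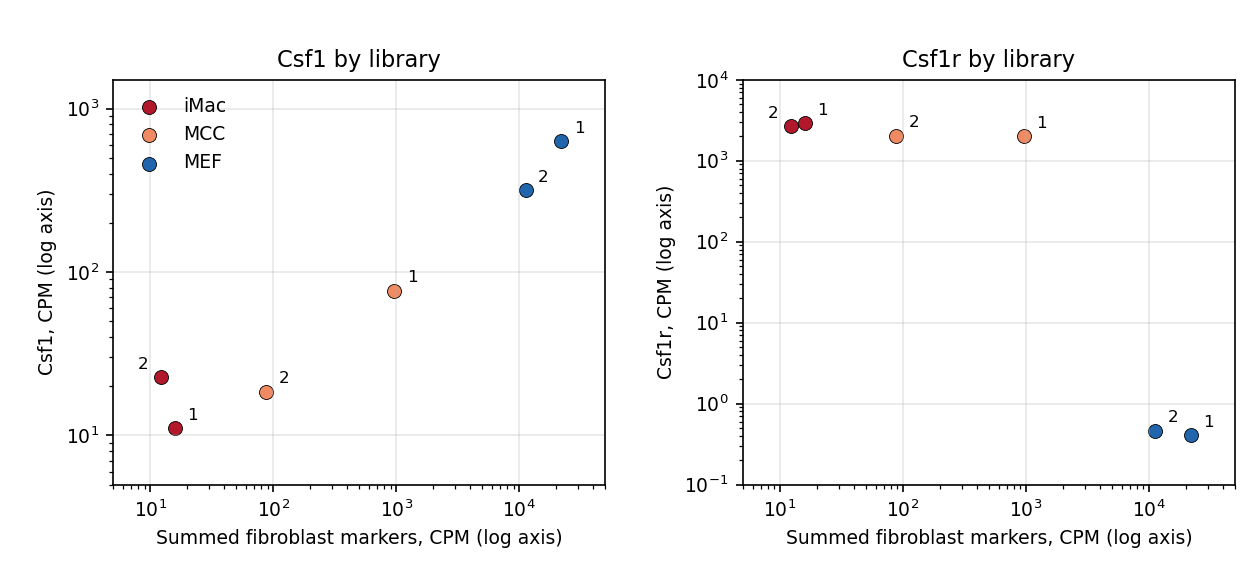
Level of Csf1 (left) and Csf1r (right) against the summed level of 12 fibroblast markers in each library, in CPM on log axes, with replicate numbers beside the points. The MCC libraries lie far apart in marker sum (963.5 and 87.5 CPM) and in Csf1 (77.0 and 18.5 CPM), and side by side in Csf1r (2005 and 2033 CPM).

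Il34 (chr8:110741829-110805924, minus strand) encodes the other ligand of CSF1R, known from keratinocytes and neurons. It had 0 counts in both iMac libraries, 10 and 0 counts in MCC and 277 and 233 counts in MEF, or 7.508 and 6.002 CPM in MEF. Only MEF held it above a trace. Set against MEF, iMac held at least 149.7-fold less, taking 3 counts over the group as the lowest level that could be seen, and the adjusted p was 0.0113. In MCC against MEF the log2 fold change was -5.65 ± 1.18 with an adjusted p of 0.0209.

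The Il34 calls also depended on which libraries were kept. Without MEF library 1 or 2 the MCC difference had adjusted p-values of 0.0757 and 0.0756. Since the counts of MCC lay in library 1 alone, the log2 fold change was -10.93 with that library left out and -4.56 with MCC library 2 left out. Without iMac library 1 or 2 the iMac difference had adjusted p-values of 0.0536 and 0.0537. Of the exonic bases of Il34, 4.95% are shared with genes on the opposite strand (Gm15894 and Gm15895). The sources do not say whether reads were counted by strand, so reads there could come from either.

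Csf3 (chr11:98701263-98703629, plus strand), the granulocyte factor, was close to the limit of what could be seen. It had no counts in iMac, 2 and 1 counts in MCC and 8 and 6 counts in MEF. The order of the groups was that of Il34, at much lower counts. With iMac set at 3 counts over the group, the lowest level that could be seen, Csf3 was 4.11-fold lower in iMac than in MEF. In MCC it was lower by a ratio of 4.67 (95% counting interval 1.31 to 25.4). With no filter on low counts its adjusted p was 0.0558 in iMac against MEF and 0.255 in MCC against MEF.

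Csf1r (chr18:61100598-61132149, plus strand) had the highest level per length of the receptors in iMac and in MCC. It was at 2922 and 2698 CPM in iMac, 2005 and 2033 CPM in MCC and 0.407 and 0.464 CPM in MEF, where the libraries held 15 and 18 counts. The groups were well apart, and both iMac libraries stood above both MCC libraries. The log2 fold change was 12.64 ± 0.20 in iMac against MEF (adjusted p 4.18e-05) and 12.17 ± 0.19 in MCC against MEF (adjusted p 4.68e-05). Its pseudogene Csf1r-ps had 35 and 30 counts in iMac, 15 and 32 in MCC and none in MEF. The gene Hmgxb3 lies over 15.1% of the exonic bases of Csf1r on the opposite strand. Hmgxb3 was at 52.9 and 45.8 CPM in iMac, 49.18 and 38.98 CPM in MCC and 58.7 and 52.3 CPM in MEF, so it did not follow Csf1r over the groups.

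Csf2ra (chr19:61223957-61228429, minus strand), the alpha chain that makes the CSF2 receptor specific, was the one receptor gene of the set with a clear level in fibroblasts. It was at 98.8 and 107.3 CPM in iMac, 89.5 and 118.5 CPM in MCC and 8.84 and 6.54 CPM in MEF. The iMac values lay within the range of the MCC values, and both groups lay above MEF. The log2 fold change was 3.74 ± 0.23 in iMac against MEF (13.4-fold higher, adjusted p 0.000456) and 3.76 ± 0.23 in MCC against MEF (13.5-fold higher, adjusted p 0.000559).

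The beta chain genes had almost no counts in fibroblasts. Csf2rb (chr15:78325752-78353847, plus strand) was at 474 and 411.1 CPM in iMac and 457.7 and 521.2 CPM in MCC, with 2 counts in each MEF library. Csf2rb2 (chr15:78282507-78305721, minus strand) was at 316 and 272.9 CPM in iMac and 253 and 280.9 CPM in MCC, with 0 and 3 counts in MEF. For both genes the iMac and MCC ranges overlapped and MEF was far below. For Csf2rb the log2 fold change was 12.94 ± 0.22 in iMac against MEF (adjusted p 4.18e-05) and 13.09 ± 0.22 in MCC against MEF (adjusted p 4.68e-05). With 2 counts in each MEF library, the counting error of these folds is larger than the SE shown. Csf2rb2 was higher in iMac than in MEF by a ratio of 7433 (95% counting interval 2543 to 36048, adjusted p 0.00018). In MCC against MEF its ratio was 6732 (2303 to 32649, adjusted p 0.000223). Because all MEF counts of Csf2rb2 lay in library 2, its fitted log2 fold change was 11.84 in iMac and 11.70 in MCC without MEF library 1, and 16.33 in iMac and 16.26 in MCC without MEF library 2.

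Csf2rb and Csf2rb2 are neighbours, 20030 bases apart on opposite strands, and their transcripts are alike. Of the 100-base stretches in the longest Csf2rb transcript, 6.96% occur unchanged in that of Csf2rb2, and 7.2% the other way round. How the counting treated reads that match both is not given, so the split of counts between the pair is uncertain.

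Csf3r (chr4:126024550-126044440, plus strand), known from neutrophils and their precursors, was at 109.2 and 111.3 CPM in iMac, 60.9 and 76.0 CPM in MCC and 2 and 1 counts in the MEF libraries. The 3 groups did not overlap. Csf3r was higher in iMac than in MEF by a ratio of 2782 (95% counting interval 951.5 to 13492, adjusted p 5.91e-05) and in MCC than in MEF by a ratio of 1725 (590 to 8368, adjusted p 7.27e-05). Of 10 neutrophil markers listed, 8 had a row, and Mmp8 alone had a mean of at least 1 CPM in iMac and in MCC. The 8 summed to 41.5 and 35.3 CPM in iMac, 47.0 and 25.2 CPM in MCC and 0.244 and 0.593 CPM in MEF. The part of neutrophil-like cells in the Csf3r level was not tested.

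Flt3 (chr5:147330741-147400489, minus strand) had no counts in iMac, 3 and 1 counts in MCC and none in MEF, so no receptor mRNA beyond a trace was seen for FLT3 ligand. These counts are too few to give a minimum fold between MCC and MEF. Flt3 was not called in any comparison when genes with low counts were kept. Flt3l, the gene of its ligand, was at 4.27 and 4.28 CPM in iMac, 3.10 and 4.82 CPM in MCC and 0.759 and 2.34 CPM in MEF. Its adjusted p was 0.0827 in iMac against MEF and 0.104 in MCC against MEF. Without MEF library 2 it was called in both, with log2 fold changes of 2.46 in iMac and 2.42 in MCC and adjusted p-values of 0.0166 and 0.0188, and without MEF library 1 its log2 fold change in MCC was 0.76. Of the exonic bases of Flt3l, 22.1% are shared with Gm45713 on the same strand.

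The 5 receptor genes with a test were called as higher in all 14 alternatives to the fit, in iMac against MEF and in MCC against MEF alike. These alternatives include leaving out each of the 6 libraries.

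**Figure D3:**
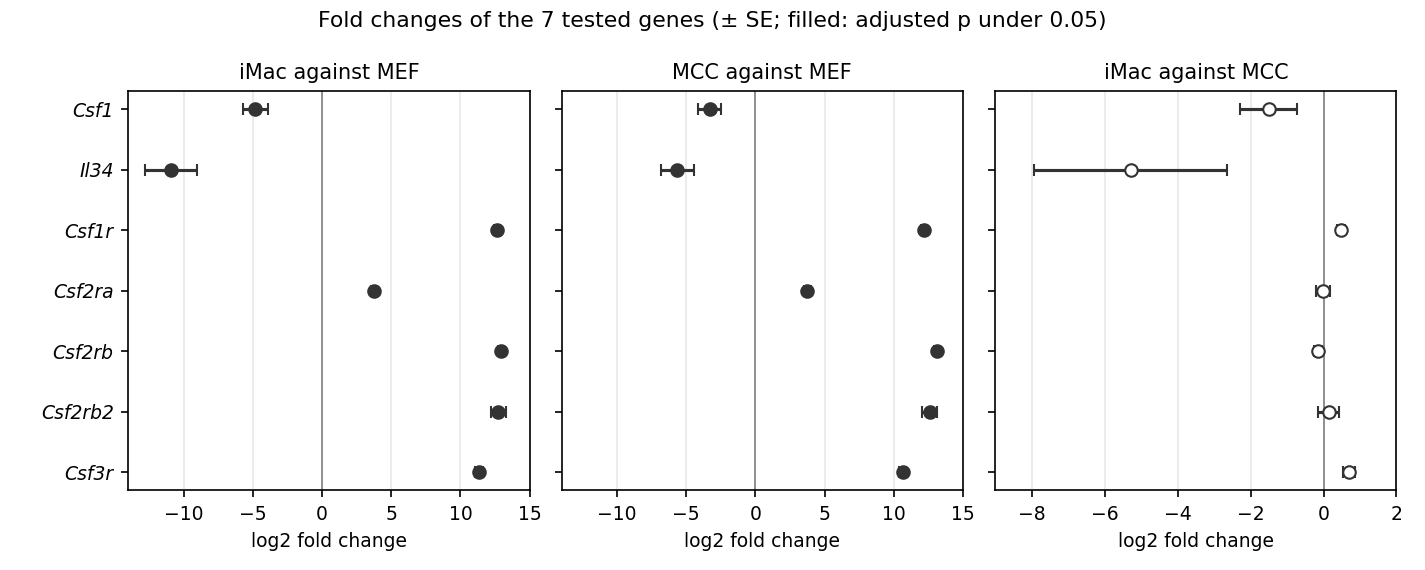
Log2 fold change of the 7 tested genes in iMac against MEF, MCC against MEF and iMac against MCC, the last on its own scale. Bars are the SE derived from the F statistic of the test, which can be smaller than the counting error where MEF held few counts. Filled points have an adjusted p under 0.05. Csf1 and Il34 lie left of 0 and the 5 receptors right of 0 in both comparisons with MEF, and no point is filled in iMac against MCC; fitted values of Il34, Csf2rb2 and Csf3r against groups with 3 counts or fewer depend on the prior count.

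To set the genes side by side, counts were divided by the exonic length of each gene and scaled over the library, to TPM (a length-scaled share in units of 1e6). In iMac the order of mean levels was Csf1r (1457 TPM), Csf2rb2 (186 TPM), Csf2rb (182 TPM), Csf2ra (107.6 TPM), Csf3r (91.5 TPM) and Csf1 (9.59 TPM), with Il34, Csf3 and Flt3 at no counts. In MCC it was Csf1r (1161 TPM), Csf2rb (223 TPM), Csf2rb2 (187 TPM), Csf2ra (120.1 TPM), Csf3r (62.9 TPM), Csf1 (30.2 TPM) and Il34 (0.222 TPM), with Csf3 and Flt3 below. The receptors other than Flt3 led the ligands in both. In MEF the order began with Csf1 (327 TPM), Il34 (12.7 TPM) and Csf2ra (9.87 TPM), and Csf1r followed Csf3 at 0.281 TPM. Neighbours whose libraries overlapped were Csf2rb2 and Csf2rb in iMac, Il34 and Csf3 in MCC, and Csf3r, Csf2rb2 and Csf2rb in MEF. With the length of the longest transcript in place of all exonic bases, Csf2rb (208 TPM) stood above Csf2rb2 (143 TPM) in iMac. That length also exchanged the places of this pair in MEF and changed no other place.

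Among the 29521 genes with a length, Csf1r ranked 80th and 84th in the iMac libraries, 101st and 104th in MCC and 20036th and 20100th in MEF. Csf1 ranked 9902nd and 7771st in iMac, 3445th and 8551st in MCC and 349th and 656th in MEF. The receptor was thus among the most abundant mRNAs of iMac and MCC, and its ligand ranked high in MEF and lower in iMac and MCC.

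Within each library, Csf1r over Csf1 per length was 242.5 and 109 in iMac, 23.8 and 100.6 in MCC and 0.00059 and 0.00134 in MEF. The MEF libraries thus held 1695 and 747.5 times as much Csf1 as Csf1r. Il34 made up 3.11% and 4.86% of the summed Csf1 and Il34 level in MEF. The summed beta chains over Csf2ra were 3.83 and 3.05 in iMac, 3.73 and 3.17 in MCC and 0.00242 and 0.0103 in MEF. In MEF, therefore, Csf2ra mRNA was present almost without mRNA of the chain through which it signals.

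The share of Csf2rb2 in the beta chain pair was 50.6% and 50.5% in iMac and 45.9% and 45.3% in MCC. The iMac libraries lay above the MCC libraries, by more than the libraries of a group differed. The exact two-sided permutation test gave p = 0.333, the smallest that 2 libraries against 2 allow. With the longest transcript as length the shares were 40.8% and 40.7% in iMac and 36.4% and 35.8% in MCC.

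**Figure D4:**
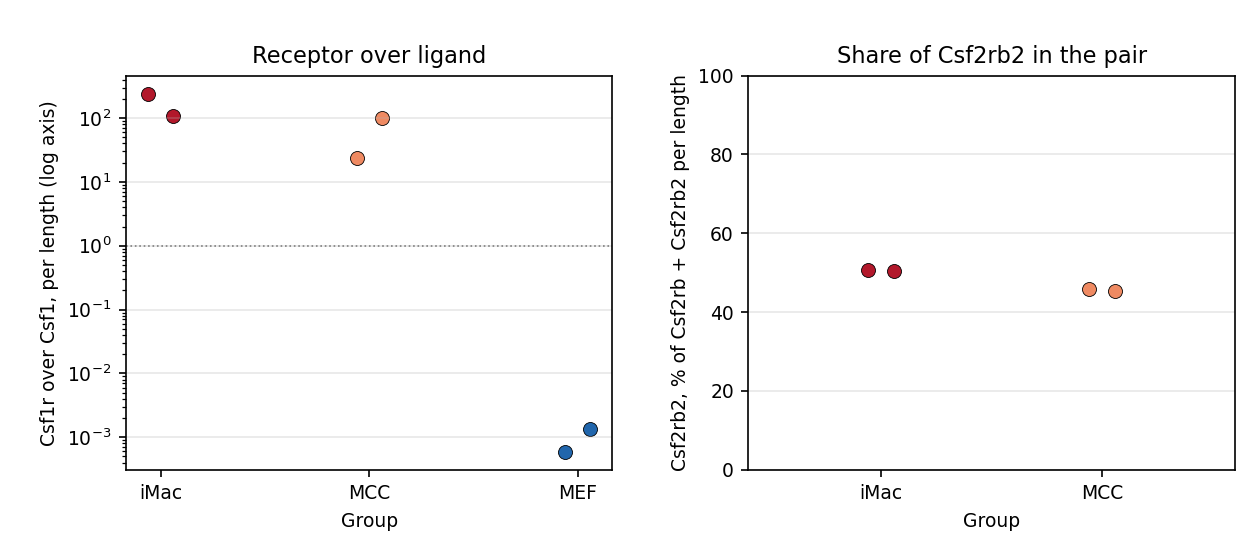
Csf1r over Csf1 per length in each library on a log axis (left; the dotted line marks equal levels) and the share of Csf2rb2 in the summed Csf2rb and Csf2rb2 level in iMac and MCC libraries (right, in %). The ratio is 23.8 or more in every iMac and MCC library and 0.00134 or less in MEF, and the share is about 5 points higher in iMac (50.6% and 50.5%) than in MCC (45.9% and 45.3%).

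In iMac against MCC, edgeR called none of the 7 tested genes, where it called 4 of all 18613 genes (0.0215%; 0.0107% as higher and 0.0107% as lower in iMac; 1202 genes without MCC library 2 and 0 to 2 without any other library). Those 4 were Npnt and Id3, lower in iMac, and Tecpr1 and Rnf144b, higher in iMac. At an unadjusted p under 0.05, 2 of the 7 passed, Csf1r and Csf3r, against 18.2% of all genes. Csf1r was 1.39-fold higher in iMac, a log2 fold change of 0.48 ± 0.12 (adjusted p 0.179; 95% interval 0.17 to 0.78). Csf3r was 1.61-fold higher, a log2 fold change of 0.69 ± 0.16 (adjusted p 0.163; 95% interval 0.29 to 1.08). DESeq2 called both, with adjusted p-values of 2.56e-07 for Csf1r and 0.000709 for Csf3r, where it called 2722 of all 18613 genes. The edgeR test fitted on the iMac and MCC libraries alone also called both, with adjusted p-values of 0.0315 for Csf1r and 0.0375 for Csf3r. That fit called 1364 of 15859 genes. Csf1r and Csf3r are higher in iMac in every alternative run, and whether they are called depends on the model.

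The other tested genes showed no difference that stood out from the spread, with intervals that leave room for one. The log2 fold change of iMac against MCC was -0.01 for Csf2ra (95% interval -0.53 to 0.50), -0.15 for Csf2rb (-0.45 to 0.16) and 0.14 for Csf2rb2 (-0.60 to 0.89). Csf1 was lower in iMac by a log2 fold change of -1.50 ± 0.78 (adjusted p 0.37; 95% interval -3.50 to 0.50). The Csf1 value hung on 1 library at a time: leaving out MCC library 1 gave -0.16, leaving out MCC library 2 gave -2.33 and leaving out iMac library 2 gave -2.11. Il34 had no counts in iMac and 10 in MCC, all of them in MCC library 1. It was not called (adjusted p 0.372), and the 95% interval of its log2 fold change was -12.53 to 1.95.

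The genes through which these receptors act were counted in 6 lists: molecules that carry the CSF1R signal, the JAK-STAT pathway used by the CSF2 and CSF3 receptors, related ligands and receptors, regulators of the receptor genes, inducers of the ligand genes and factors that set the stability of the ligand mRNAs. Of their 81 tested genes, 41 were called as higher and 17 as lower in iMac than in MEF, and 41 as higher and 19 as lower in MCC than in MEF. Over all genes tested, 25.1% were called as higher and 32.4% as lower in iMac, and 23.4% as higher and 29.6% as lower in MCC. As above, some list genes, such as Spi1 and Irf8, passed the filter on low counts only through the groups in which they were high, so the counts and medians of the lists are descriptions. The median log2 fold change of these genes was 0.74 in iMac and 0.83 in MCC, against -0.06 in iMac and -0.05 in MCC over all genes tested.

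CSF1R signalling genes were mostly higher. Of 19 tested, 14 were called as higher and 3 as lower in iMac against MEF, with a median log2 fold change of 2.54, and the same numbers held in MCC against MEF with a median of 2.72. Tyrobp, the adaptor DAP12 that passes on signals from CSF1R and other myeloid receptors, was at 709.3 and 741.4 CPM in iMac, 433.4 and 503.6 CPM in MCC and 0.163 and 0.0773 CPM in MEF. Its log2 fold change was 12.53 ± 0.31 in iMac against MEF and 11.90 ± 0.31 in MCC against MEF; without MEF library 1 it was 13.14 in iMac and 12.51 in MCC. The phosphatases Inpp5d (SHIP1) and Ptpn6 (SHP-1), which damp the signal, were higher by log2 fold changes of 8.26 and 7.86 in iMac and 8.26 and 7.61 in MCC (8.27 for Ptpn6 in MCC without MEF library 2). The 3 genes that were lower were the kinases Src and Fyn and the PI3-kinase subunit Pik3r1, which fibroblasts also use. Src was at 20.8 and 14.6 CPM in iMac, 26.03 and 13.83 CPM in MCC and 113.5 and 116.6 CPM in MEF. The kinase gene Lyn, known from myeloid cells, was higher instead, with log2 fold changes of 2.54 in iMac and 2.72 in MCC. Pik3r1 was no longer called without MEF library 2 in either comparison (adjusted p 0.0583 in iMac and 0.0627 in MCC), without either iMac library (0.111 and 0.115 in iMac; 0.053 and 0.0531 in MCC) or, in MCC, without MCC library 2 (0.0959).

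JAK-STAT genes moved both ways. Of 16 tested, 7 were called as higher and 4 as lower in iMac against MEF (median -0.02), and 7 as higher and 5 as lower in MCC against MEF (median 0.31). Among all genes tested, 25.1% were called as higher and 32.4% as lower in iMac, and 23.4% as higher and 29.6% as lower in MCC. With 16 genes, no difference from these shares can be read. The kinase gene Jak3, best known from lymphoid and myeloid cells, was higher by 2.74 ± 0.15 in iMac and 2.79 ± 0.15 in MCC on the log2 scale. Stat5a and Stat5b, which act below the CSF2 receptor, were higher by 0.88 and 1.05 in iMac and 0.90 and 0.90 in MCC; Stat5a was not called in iMac without iMac library 1 (adjusted p 0.0508) or iMac library 2 (0.0716). Of the 4 suppressor genes in the list, whose proteins feed back on the pathway, Socs1, Socs2 and Cish were lower. Socs3 was not called, with log2 fold changes of -1.06 in iMac (adjusted p 0.0596) and 0.95 in MCC (adjusted p 0.0826). Socs1 was at 0.567 and 0.543 CPM in iMac, 1.07 and 0.910 CPM in MCC and 5.64 and 5.62 CPM in MEF, and Socs2 was at 0.0896 and 0.302 CPM in iMac, 3.62 and 1.31 CPM in MCC and 18.7 and 7.16 CPM in MEF. Socs2 changed by -6.02 ± 0.97 in iMac, and by -5.16 (MEF library 1 left out), -5.39 (iMac library 1 left out) and -7.11 (iMac library 2 left out), called each time. The call of Cish in both comparisons and that of Socs2 in MCC were lost without several single libraries, and that of Jak2 in MCC without any one of the 6. With all libraries kept, limma-voom also lost Cish (adjusted p 0.108 in iMac and 0.121 in MCC), and unscaled library totals lost Socs2 (0.0512) and Jak2 (0.0824) in MCC. For MCC the number of genes called as lower was then 2 without MEF library 1, MCC library 2, iMac library 1 or iMac library 2, and 3 without MEF library 2 or MCC library 1.

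Of 20 related ligands and receptors, 17 had a row and 15 were tested. In iMac against MEF 3 were called as higher and 7 as lower (median -2.65), and in MCC against MEF 2 as higher and 9 as lower (median -1.96). Fitted on MCC and MEF alone, 6 were called as lower in MCC. Leaving out any single library also gave fewer than 9. Ptprz1, a further receptor of interleukin-34, had no counts in iMac, 0.182 and 0.134 CPM in MCC and 29.3 and 112.7 CPM in MEF, at least 1601-fold lower in iMac. Kit, the receptor of stem cell factor, had no counts in iMac, 2 in MCC and 454 in MEF. It was at least 133.2-fold lower in iMac, and lower in MCC by a ratio of 227.4 (95% counting interval 62.6 to 1883). Leaving out single libraries moved the fitted log2 fold change of Kit in MCC between -10.73 (MCC library 1) and -6.28 (MEF library 2), and that of Ptprz1 between -9.44 (MEF library 1) and -7.44 (MEF library 2), called each time. Pdgfra, a receptor of the CSF1R family that marks fibroblasts, was at 0.179 and 0.0302 CPM in iMac, 3.17 and 0.562 CPM in MCC and 173.3 and 215.9 CPM in MEF. Its log2 fold change was -10.81 ± 1.16 in iMac and -6.70 ± 0.90 in MCC. Leaving out iMac library 1 or 2 gave -12.49 or -10.04 in iMac, and leaving out MCC library 1 or 2 gave -8.41 or -5.81 in MCC. The genes called as higher in both were Il6ra and Epor, the receptors of interleukin-6 and erythropoietin. Il6ra was at 187.3 and 198.6 CPM in iMac, 133.1 and 159.6 CPM in MCC and 15.3 and 30.6 CPM in MEF. Without MEF library 2, 5 of the list were called as higher in iMac.

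Regulators of the receptor genes showed 7 genes called as higher and none as lower among 10 tested in iMac against MEF (median 3.03), and 8 as higher and none as lower in MCC against MEF (median 3.01). Spi1, which encodes PU.1, was at 368 and 307.2 CPM in iMac and 304.8 and 371.4 CPM in MCC, with 1 count over both MEF libraries. Irf8, a partner of PU.1, was at 365.1 and 342 CPM in iMac, 184.3 and 237.3 CPM in MCC and 0.244 and 0.258 CPM in MEF. Fli1, another ETS factor, was higher by 5.38 ± 0.20 in iMac and 4.91 ± 0.20 in MCC on the log2 scale. Ets2 and Egr2 were not called in either comparison in the fit on all 6 libraries. Which genes of this list were called in MCC against MEF changed when an MCC library was left out. Fitted on iMac and MEF alone, 1 gene was called as lower in iMac. Cebpb was called only in MCC (1.43 ± 0.29, adjusted p 0.0136), a call lost without MEF library 1 (log2 fold change 1.25). The difference of Cebpb between iMac and MCC was not called.

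Of 13 tested inducers of the ligand genes, which include the interleukin-1, tumour necrosis factor, Toll-like receptor and NF-κB genes, 7 were called as higher and 3 as lower in iMac against MEF (median 0.37), and 7 as higher and 2 as lower in MCC against MEF (median 0.58; 1 as lower without MEF library 2). Il1r1, the interleukin-1 receptor through which fibroblasts are known to be told to make colony-stimulating factors, was at 0.209 and 0.241 CPM in iMac, 5.72 and 0.749 CPM in MCC and 66.8 and 70.4 CPM in MEF. Its log2 fold change was -8.23 ± 1.17 in iMac and -4.40 ± 0.92 in MCC, where leaving out MCC library 1 gave -6.50, leaving out MCC library 2 gave -3.46 and the call was lost without MEF library 2 (adjusted p 0.0566). Tlr2 was higher by 4.76 ± 0.18 in iMac and 5.16 ± 0.18 in MCC. Tnf was at 7.286 and 6 CPM in iMac, 6.76 and 4.74 CPM in MCC and 0 and 0.129 CPM in MEF.

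Factors that set the stability of cytokine mRNAs were called as higher in 3 of 8 cases in each comparison with MEF and as lower in none (5 as higher in each without MEF library 2). Over all genes, 57.6% were called in iMac, 25.1% as higher, and 53% were called in MCC, 23.4% as higher. With 8 genes, no difference from these shares can be read. The 3 called were Zfp36, Zfp36l1 and Zc3h12a in both comparisons, and Zfp36l2, Khsrp, Rc3h1, Hnrnpd and Elavl1 were not called. Zfp36, which encodes tristetraprolin, a protein that binds the Csf2 mRNA among others, was at 338.4 and 325 CPM in iMac, 455.1 and 412.4 CPM in MCC and 59.6 and 115.7 CPM in MEF. Zfp36l1 was higher by 2.18 ± 0.11 in iMac and 1.77 ± 0.11 in MCC, and Zc3h12a (regnase-1) by 1.21 ± 0.14 in iMac and 1.04 ± 0.14 in MCC. For Zfp36 the log2 fold change was 1.92 ± 0.32 in iMac and 2.31 ± 0.33 in MCC, or 2.92 in MCC without MEF library 2.

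**Figure D5:**
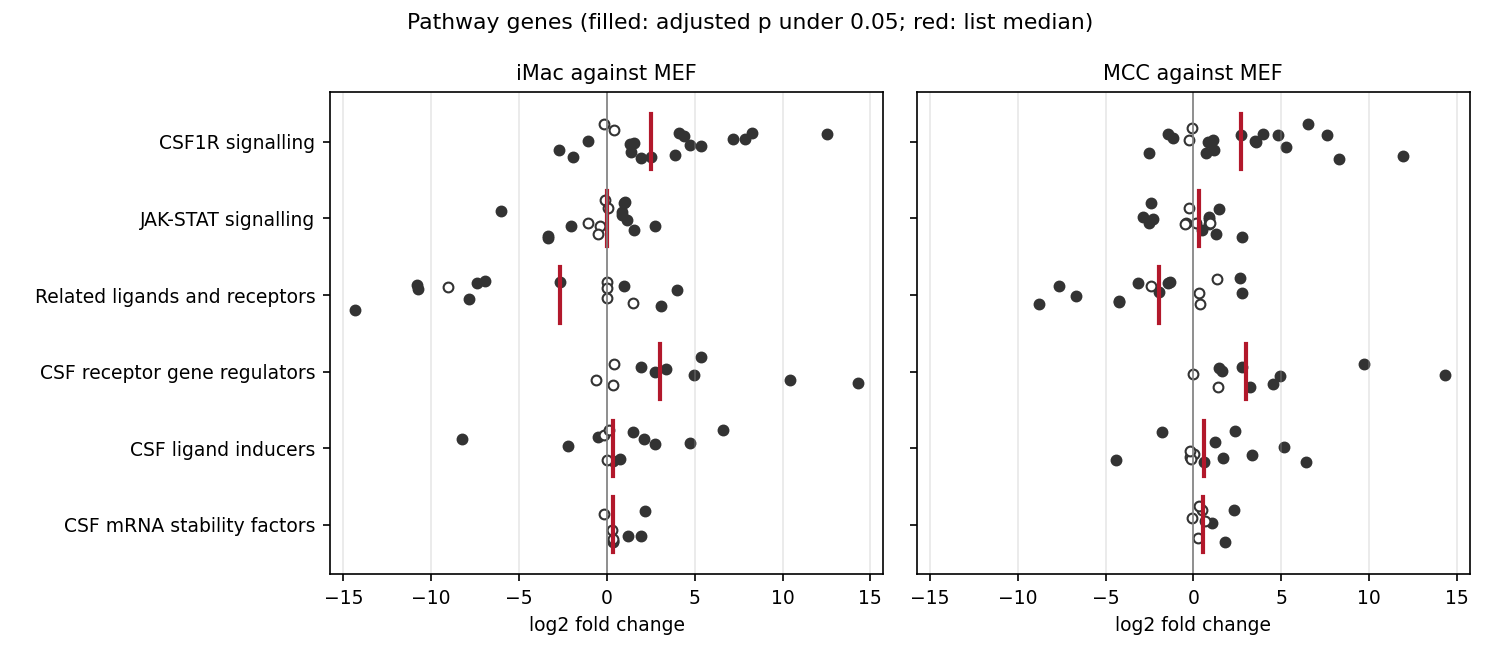
Log2 fold change of each tested gene in the 6 lists, in iMac against MEF (left) and MCC against MEF (right); filled points have an adjusted p under 0.05 and red lines mark each list's median. CSF1R signalling genes and receptor gene regulators lie mostly right of 0, with medians of 2.54 and 3.03 in iMac, and related ligands and receptors lie mostly left of it, with a median of -2.65.

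In iMac against MCC none of the 81 tested genes of these lists was called by edgeR. DESeq2 called 30 of them, against 2722 of all 18613 genes. With edgeR on the iMac and MCC libraries alone, 17 of 77 list genes were called, against 1364 of 15859 genes. For limma-voom the numbers were 2 of the 81 and 146 of 18613. Syk, a kinase below Tyrobp, was at 427.2 and 376.1 CPM in iMac and 218.6 and 232.3 CPM in MCC, a log2 fold change of 0.83 ± 0.10 with an adjusted p of 0.0791. Adam17, the protease that sheds CSF1R from the cell surface, was at 333.4 and 337.8 CPM in iMac and 200.2 and 204.3 CPM in MCC, a log2 fold change of 0.73 ± 0.11 with an adjusted p of 0.103. For both, the iMac libraries stood above the MCC libraries.

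Other genes followed the set across the 6 libraries. Likeness was measured as the Euclidean distance between log2(CPM + 0.5) profiles centred on their means, among named genes of similar mean level. Nearest to Csf1 were Ak1 (distance 0.82), Cgnl1 and Tpm1 (1.05). Picked for likeness over these same libraries, each of these was, like Csf1, several times higher in MCC library 1 than in MCC library 2. Ak1 was at 50.9 and 13.2 CPM there. Nearest to Csf1r were F13a1 (0.71), C1qb (0.75) and Stab1 (0.83). For Csf2ra they included Rps6ka1 (0.41) and Pde1b (0.42), and for Csf2rb they were Spi1 (0.45), Nckap1l (0.55) and Lcp1 (0.60). For Csf3r they were Lilrb4a (0.21), Cd180 (0.23) and Gpr183 (0.27). Distances are not compared between genes, since the number of candidates of similar level ran from 314 for Csf1r to 8028 for Csf3r. Lilrb4a was at 102.8 and 99.7 CPM in iMac, 53.6 and 62.7 CPM in MCC and 0 and 0.0258 CPM in MEF.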

How the data were processed

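The table holds raw read counts per gene for 6 libraries, deposited by the authors, who per the submitters' processing notes used STAR, the mm10 genome and featureCounts. The sources used here give no versions, gene annotation, strand setting or rule for reads with several matches. RNA was Trizol-extracted total RNA and the library kit an mRNA kit, per the labels' protocols. The labels name no batch.

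Counts were used as deposited. Coordinates, exonic lengths and shared exonic bases came from GENCODE mouse release 21 (GRCm38, as mm10), which holds 29529 of the 30445 symbols, 8 of them for more than 1 gene. The test was run in edgeR 4.0.16 under R 4.3.3: filterByExpr (18613 genes kept, 11832 removed), TMM scaling, and the two-sided quasi-likelihood test on all 6 libraries by group alone, with Benjamini-Hochberg adjustment and a threshold of 0.05. Fitted fold changes use a prior count of 0.125. The SE is the size of the log2 fold change over the square root of the F statistic of the test. The 95% intervals of iMac against MCC rest on it. Where a group held few counts, as MEF did for Csf1r, Csf2rb and Tyrobp, this SE is smaller than the counting error. CPM uses the TMM-scaled library total. Where a group had no counts, the fold is a lower bound against 3 counts over the group, and a fold against 1 to 3 counts is a ratio with its 95% counting interval. The bound leaves out counting error in the group that had counts. Counting intervals and these limits cover counting error only.

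The genes, the 6 lists and the marker lists were chosen with earlier results of these data known. Named in each list were up to 3 called genes with the largest fold changes and at least 1 CPM on average in the higher group, or the most highly expressed where fewer than 2 were called; further list genes were named after their values were seen. The nearest genes exclude predicted ones and have a mean level within 4 times that of the gene, up or down. Motifs were searched in the RefSeq promoter table, which holds 6 of the 10 genes.

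Alternatives were median-ratio size factors, library totals without scaling, DESeq2 1.42.0, limma-voom (limma 3.58.1), no filter, a filter at 1 CPM in 2 or more libraries, fitting the groups compared alone, a replicate block, and each library left out in turn. A group left with 1 library is assumed to vary like the others. The longest transcript as gene length, and the alternatives for the lists and their genes, were chosen after seeing the data. The scripts were tested on simulated data. Python 3.11.15 with numpy 2.4.6, pandas 2.3.3, scipy 1.17.1 and matplotlib 3.10.9 served for tables and figures.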

Additional observations from a re-analysis of the deposited data

How the results depend on the processing

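Of the 7 tested genes, 7 were called in iMac against MEF and in MCC against MEF under every setting that kept all 6 libraries, and 5 to 7 when a library was left out; Csf1 and Il34 were the ones lost. In iMac against MCC the count of 0 became 2 with DESeq2 and 2 with only the groups compared, where Il34 has no value because it was filtered out, and stayed at 0 when any library was left out. Over all genes, the 10717 called in iMac against MEF became 5173 to 10695 when a library was left out, lowest without iMac library 1 (5173) or 2 (5197). The 4 called in iMac against MCC became 2722 with DESeq2, 146 with limma-voom, 89 with no filter, 1364 with only the groups compared and 0 to 1202 when a library was left out, the highest without MCC library 2. Of the 81 list genes, 0 were called in iMac against MCC, and 30 with DESeq2, 2 with limma-voom, 1 with no filter, 17 with only the groups compared and 0 to 11 when a library was left out. JAK-STAT genes called as lower in iMac against MEF numbered 7 rather than 4 with median-ratio size factors and with DESeq2. With DESeq2, 5 mRNA stability genes rather than 3 were called in each comparison with MEF, 4 as higher and 1 as lower in iMac and 5 as higher in MCC. For each of these changes the cause was not tested.

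In iMac against MCC some log2 fold changes near 0 changed sign: Csf2ra was 0.07 without MCC library 2 and 0.05 without iMac library 1, within -0.23 to 0.07 when a library was left out. Mcl1 was -0.06 with unscaled library totals, -0.14 without MCC library 2 and -0.01 without iMac library 1, within -0.14 to 0.18. Stat3 was 0.10 without MCC library 1, within -0.32 to 0.10, Jak1 was -0.04 without MCC library 2, within -0.04 to 0.21, and Maf was -0.01 with unscaled library totals. Csf2rb over Csf2rb2 per length was 1.45 in iMac and 1.77 in MCC with the longest transcript, rather than 0.979 in iMac and 1.19 in MCC, since that length is shorter for Csf2rb.

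Libraries with the same replicate number deviated from their group means with correlations of 0.131 (MCC and MEF), -0.00688 (iMac and MEF) and 0.00226 (iMac and MCC), over 2 libraries a group, so the numbers are not known to pair libraries. With the replicate block, 7, 7 and 0 of the 7 genes were called in iMac against MEF, MCC against MEF and iMac against MCC, and 9908, 9022 and 0 of all genes. The block ended the calls of Socs2 (adjusted p 0.0544) and Jak2 (0.0724) in MCC against MEF.

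With 2 libraries a group the spread is estimated from few values, and Il34 in MCC, Csf3, Flt3 and the receptors in MEF rest on a handful of counts.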

Other observations

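Osteoclast markers, the genes of the bone-resorbing cells that CSF1 helps to form, summed to 61.8 and 26.4 CPM in iMac, 107.8 and 28.03 CPM in MCC and 46.4 and 32.9 CPM in MEF over 7 genes. Ctsk and Acp5 reached a mean of 1 CPM in all 3 groups, Mmp9 in iMac and MCC, and Ocstamp in MCC. Of 8 dendritic cell markers, 7 had a row. Zbtb46 reached a mean of 1 CPM in all 3 groups, and Batf3 did in iMac and in MCC. The sum was 9.77 and 9.11 CPM in iMac, 10.9 and 11.5 CPM in MCC and 7.37 and 11.1 CPM in MEF. Blood progenitor markers, among them Kit, summed to 5.67 and 6.81 CPM in iMac, 14.95 and 6.53 CPM in MCC and 138 and 274.3 CPM in MEF. Mast cell and basophil markers were at 0.0896 and 0.211 CPM in iMac, 0.286 and 0.268 CPM in MCC and 6.94 and 17.6 CPM in MEF, where Mcpt8 was the gene above 1 CPM. Lymphocyte markers were at 1.70 and 2.47 CPM in iMac, 1.93 and 2.38 CPM in MCC and 0.840 and 2.01 CPM in MEF. Endothelial markers were at 18.1 and 15.6 CPM in iMac, 15.03 and 15.49 CPM in MCC and 10.2 and 13.4 CPM in MEF. Keratinocyte markers, a cell type known to make interleukin-34, were at 2.09 and 1.78 CPM in iMac, 1.40 and 2.01 CPM in MCC and 5.37 and 5.72 CPM in MEF. Neuron markers, another such cell type, were at 2.06 and 2.59 CPM in iMac, 4.55 and 2.27 CPM in MCC and 140 and 166.3 CPM in MEF; their part in the Il34 level of MEF was not tested.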
